A study of Mus musculus with 6 samples.

Results

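The axon guidance ligands and receptors were taken as every gene in the count tables whose symbol belongs to the semaphorins (classes 3 to 7), plexins, neuropilins, ephrins, Eph receptors, Slits, Robos, netrins or Unc5 receptors. This symbol rule, which used no measured value, found 68 genes among 24453. There were 35 ligands and 33 receptors or coreceptors, namely 20 semaphorins, 9 plexins, 2 neuropilins, 8 ephrins, 14 Eph receptors, 3 Slits, 4 Robos, 4 netrins and 4 Unc5 receptors. RNA was sequenced from interfollicular epidermis of newborn (postnatal day 0) mouse back skin, sorted for surface Sca1 and EpCAM together with high α6-integrin, a gate that enriches for progenitors. The 3 libraries of the first group were labelled only Control, and the 3 of the second were labelled Ring1a-/- Ring1b-/-, both catalytic E3 ligases of Polycomb repressive complex 1. Each group's libraries are numbered 1 to 3 as in their titles, and values below follow that order. The labels gave neither the alleles of the controls nor the Cre line or promoter used for deletion, and they did not say whether each library came from a separate animal. The p-values below therefore measure only the spread between these libraries, which may be technical.

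Guidance ligands steer migrating cells and growing axons by binding receptors on the cell surface. Semaphorins signal through plexins, with neuropilins as coreceptors for most class 3 members, ephrins bind Eph receptors on touching cells, Slits bind Robos, and netrins bind DCC, neogenin and Unc5 receptors. In skin, keratinocytes make several of these cues, which act on the sensory nerve endings, vessels and pigment cells around them, and ephrin and Eph signalling also acts between the keratinocytes themselves. Polycomb repressive complex 1 places a ubiquitin on histone H2A and helps keep developmental genes silent.

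The libraries held 18951665 to 31187270 counts. Ring1, which encodes Ring1a, went against the labels of both replicate 3 libraries, with 30.9, 17.1 and 3.90 CPM (counts scaled to library size) in the control-labelled and 1.66, 5.20 and 14.2 CPM in the knockout-labelled ones. Rnf2, which encodes Ring1b, lay at 43.2 to 63.2 CPM in the control-labelled and 55.4 to 64.1 CPM in the knockout-labelled libraries. The labels do not say which exons were deleted, so a count over the whole gene does not check the deletion. Groups are therefore called by their labels throughout, and calls are also given from replicates 1 and 2 alone. The X-inactivation RNA Xist was 1757 CPM in control-labelled library 3, 6133 and 4736 CPM in knockout-labelled libraries 1 and 2, and at most 10.5 CPM elsewhere. The Y-linked Ddx3y was at most 0.206 CPM in knockout-labelled libraries 1 and 2 and 59.7 to 102 CPM in the other 4, so that control-labelled library 3 held RNA of both sexes. Replicates 1 and 2 alone split by sex exactly as by label, and group and sex cannot be told apart there. With log2 Xist as a covariate over all 6 libraries, 6 of the 8 higher calls and the lower one were kept, and Epha8 and Slit2 were lost (edgeR adjusted p = 0.0645 and 0.143). Over all tested genes that covariate gave 4.27% called higher and 1.17% called lower, beside 7.17% and 2.98% without it. The first principal component held 56.7% of the variance and separated the groups, and the second held 18.5% and set replicate 1 of each group apart. The summed basal keratinocyte markers lay at 29501 to 43824 CPM in the control-labelled and 25697 to 30807 CPM in the knockout-labelled libraries, and of 8 such markers Trp63 and Col17a1 were called lower.

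Of the 68 guidance genes, 61 had enough counts to be tested, 8 rose and 1 fell in the knockout-labelled libraries, and 52 were not called. The test was edgeR's quasi-likelihood test over all 14890 genes with enough counts, and a call needed a Benjamini-Hochberg adjusted p below 0.05. The 8 higher genes were Sema5b, Slit1, Slit2, Efna3, Ephb2, Epha8, Nrp1 and Unc5b, 4 ligands and 4 receptors, and the lower one was the ligand Sema3c. The share called higher was 13.1%, beside 7.17% of all tested genes, and the share called lower was 1.64%, beside 2.98%. In 19 of the 61 (31.1%, beside 17.6% of all tested genes) every knockout-labelled library lay above every control-labelled one, and in 6 (9.84%, beside 14.8%) every one lay below. The median log2 fold change was 0.21 over the 61, beside 0.00040 over all tested genes, with 38 positive and 23 negative values. Of the 12 tested members with a control-labelled mean under 1 CPM, 4 were called higher (Sema5b, Slit1, Slit2 and Epha8), and of all 1713 tested genes that low, 371 (21.7%) were. A gene that low in controls passed the filter on low counts mostly through the other group, so these counts describe the list and test nothing about it.

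With an offset for GC content and length, 8 members were higher and 7 lower, in place of 8 and 1. Over all tested genes the offset gave 6.26% higher and 4.96% lower, so that the share of higher among called genes moved from 70.6% to 55.8%, and the median log2 fold change moved to -0.089. The 7 lower members were Sema3c, Sema4b, Sema5a, Efnb2, Ephb6, Plxnb1 and Plxnb2.

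**Figure D1:**
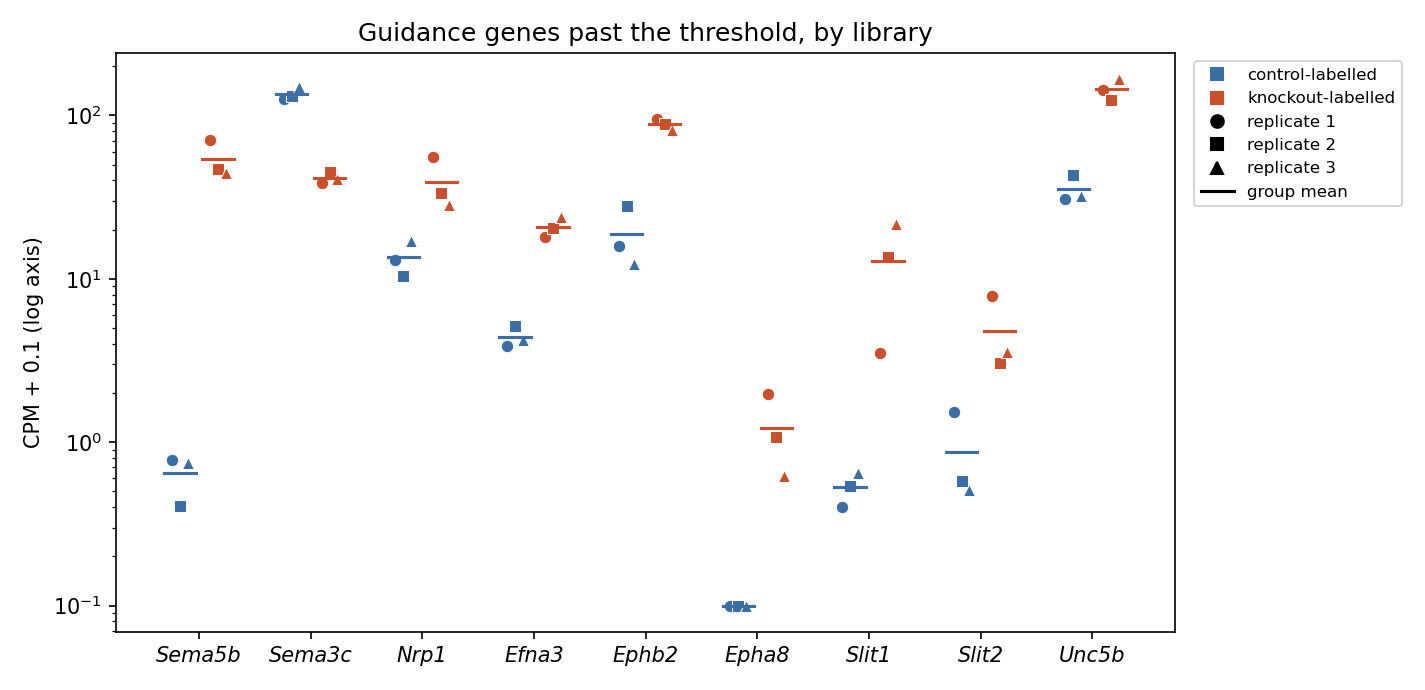
CPM plus 0.1 on a log axis for the 9 guidance genes past the edgeR threshold, with 1 point per library, symbols for replicate numbers and bars for group means. The groups do not overlap for any of the 9, and Sema3c is the one gene with the knockout-labelled libraries below.

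**Figure D2:**
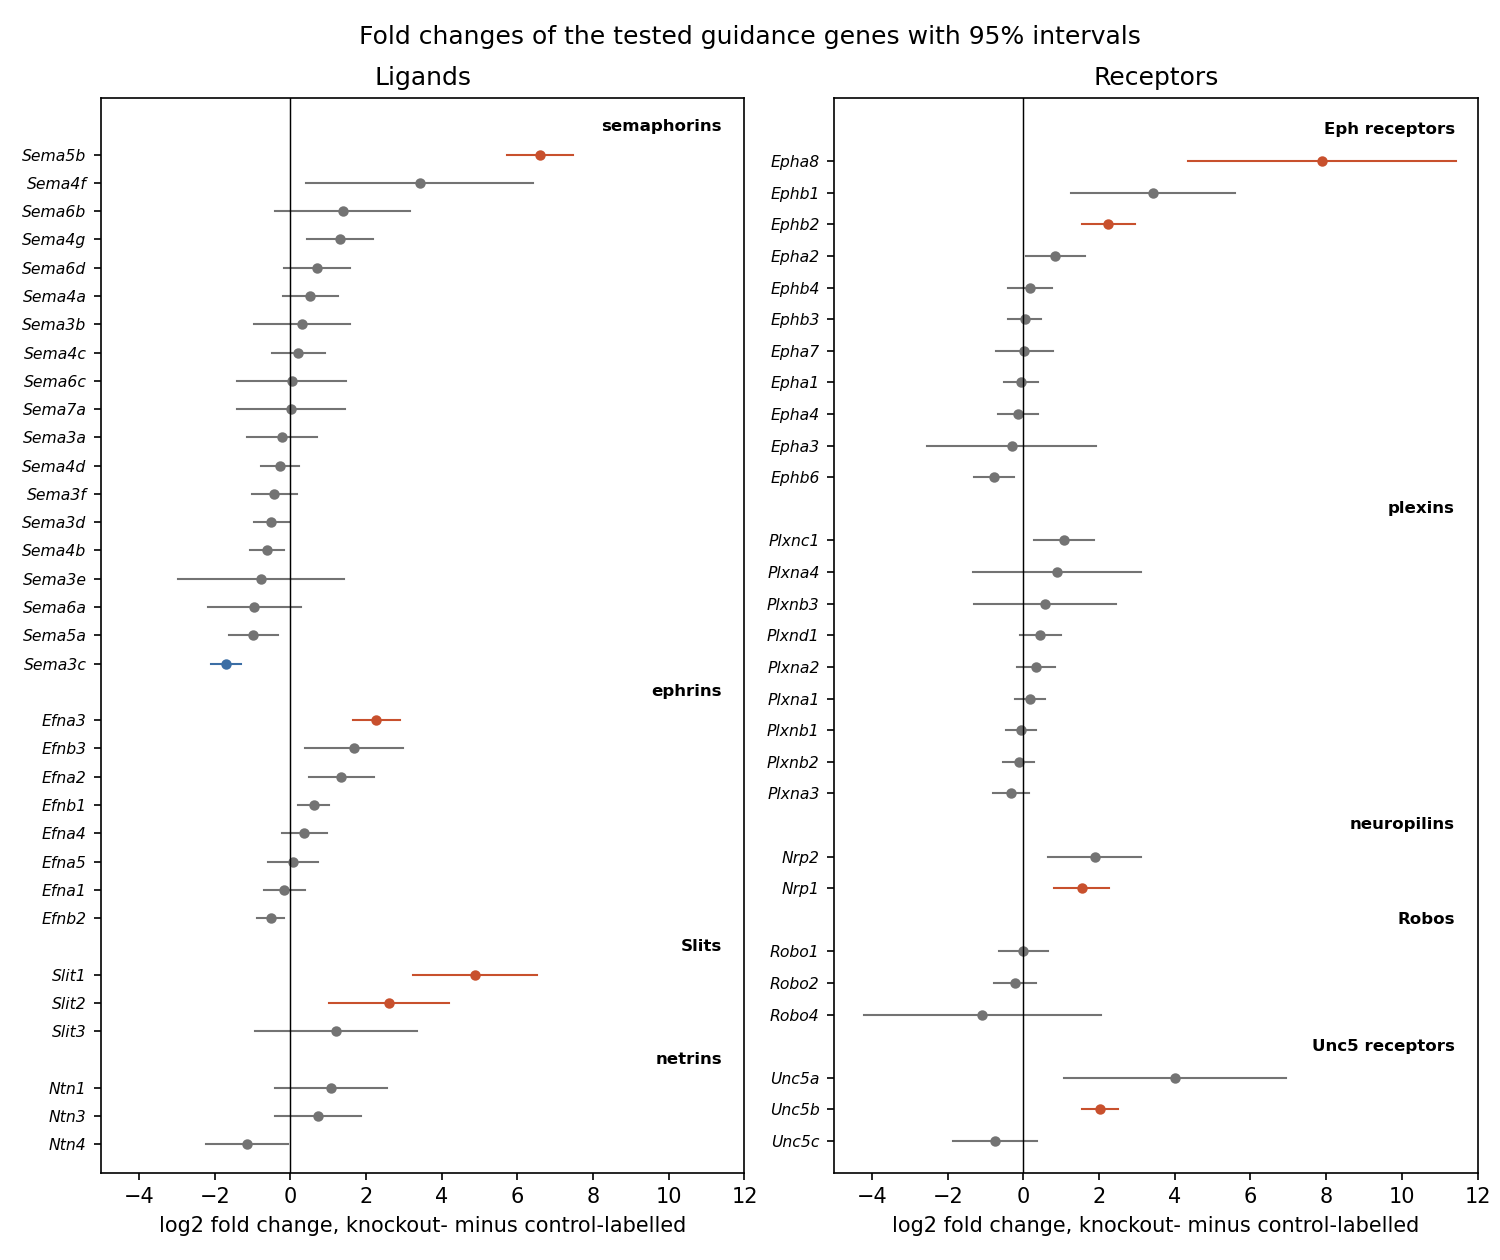
Log2 fold change, knockout-labelled over control-labelled, of the 61 tested guidance genes by family, with bars for the 95% interval from the edgeR fit, red for called higher, blue for called lower and grey for not called. Values start at -1.71 for Sema3c, and the point of Epha8, at 0 in every control-labelled library, depends on the prior count of the fit.

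Promoter sequence was read for the called genes, since Polycomb complexes in mammals occupy promoters rich in CpG dinucleotides. RefSeq windows (build GRCm38.p6) were found for 59 of the 68 members; Efnb3, Ntn1, Plxna1, Plxna4, Sema3b, Sema3f, Sema6a, Slit1 and Unc5d had no entry. Each window is the 250 bases before a RefSeq transcript start, the one with the most CG where a symbol had several. It need not lie before the GENCODE gene span given below: the windows of Nrp1, Sema3c and Efna3 lie inside that span and the windows of Sema5b and Slit2 overlap it. In these windows the motif CG, which reads the same on both strands, occurred a median of 17 times in the 59 members and 16 times in 11303 tested genes with a window. It occurred 11 to 46 times, with a median of 25, in the 7 called-higher members with a window, and a median of 16 times in 45 tested members that were not called. Over all genes called higher the median was 19 (757 genes), and over all called lower it was 12 (325 genes). Sema3c, the lower member, had 39, a count that 3.47% of the tested windows reached, so that a high count was found on both sides. Annotated exons, leaving out transcripts with retained introns, overlapped the windows of Sema3c (2 exon entries) and Slit2 (5). The windows of the other called genes overlapped none. The windows of 5 called-higher genes are printed to show this range, from Nrp1 with 11 to Epha8 with 46, each 5′ to 3′ on the gene's own strand with every CG in capitals. They lie at chr16:35541112-35541361 on the plus strand for Sema5b (19 CG), chr4:136956817-136957066 on the minus strand for Epha8 (46), chr4:136836013-136836262 on the minus strand for Ephb2 (20), chr10:60831582-60831831 on the minus strand for Unc5b (27) and chr8:128358823-128359072 on the plus strand for Nrp1 (11).
Sema5b: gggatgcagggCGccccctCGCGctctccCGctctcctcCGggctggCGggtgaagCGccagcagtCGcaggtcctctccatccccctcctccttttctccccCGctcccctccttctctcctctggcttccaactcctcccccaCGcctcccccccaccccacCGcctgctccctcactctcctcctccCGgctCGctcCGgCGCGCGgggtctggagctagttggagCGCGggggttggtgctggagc
Epha8: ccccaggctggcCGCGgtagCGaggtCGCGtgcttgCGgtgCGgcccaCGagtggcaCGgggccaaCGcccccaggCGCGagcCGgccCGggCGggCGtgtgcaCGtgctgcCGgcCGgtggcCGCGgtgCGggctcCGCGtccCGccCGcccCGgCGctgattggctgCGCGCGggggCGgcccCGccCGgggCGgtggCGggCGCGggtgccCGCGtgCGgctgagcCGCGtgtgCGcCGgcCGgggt
Ephb2: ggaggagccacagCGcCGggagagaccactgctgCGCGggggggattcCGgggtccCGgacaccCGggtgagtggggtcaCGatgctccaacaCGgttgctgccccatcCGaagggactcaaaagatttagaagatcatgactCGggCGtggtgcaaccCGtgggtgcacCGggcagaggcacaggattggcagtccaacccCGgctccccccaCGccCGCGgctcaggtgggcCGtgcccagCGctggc
Unc5b: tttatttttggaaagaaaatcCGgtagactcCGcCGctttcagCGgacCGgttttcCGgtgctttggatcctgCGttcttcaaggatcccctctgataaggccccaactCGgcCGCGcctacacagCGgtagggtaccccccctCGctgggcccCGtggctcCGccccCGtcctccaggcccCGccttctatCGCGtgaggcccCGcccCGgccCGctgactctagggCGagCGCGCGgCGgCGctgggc
Nrp1: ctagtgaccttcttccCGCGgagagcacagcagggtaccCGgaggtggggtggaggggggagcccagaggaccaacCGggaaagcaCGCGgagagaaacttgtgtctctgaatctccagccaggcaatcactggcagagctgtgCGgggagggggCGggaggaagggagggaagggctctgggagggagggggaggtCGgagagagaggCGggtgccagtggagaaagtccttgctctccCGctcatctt
No chromatin measurement was used here, so the letters describe these windows and nothing about what binds them.

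Among the semaphorin ligands, Sema5b rose and Sema3c fell, and the other 17 tested were not called. Sema5b, a transmembrane semaphorin with thrombospondin repeats (chr16:35541145-35664732, plus strand), was nearly silent in the control-labelled libraries, at 0.675, 0.306 and 0.650 CPM. It reached 70.4, 46.9 and 44.0 CPM in the knockout-labelled libraries. All 3 knockout-labelled values lay far above all 3 others, and means moved from 0.544 ± 0.206 to 53.8 ± 14.5 CPM (SD, n = 3 each). The log2 fold change was 6.60 ± 0.38 (SE; 95% interval 5.72 to 7.47; edgeR adjusted p = 2.67e-04), or 96.8-fold. On replicates 1 and 2 alone it was 6.86 (edgeR adjusted p = 0.00319). Compared per kilobase of exon (RPKM), Sema5b stood 18th of the 20 semaphorins in the control-labelled group, at 0.0768 RPKM, and 7th in the other, at 7.59 RPKM.

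Sema3c encodes a secreted ligand of neuropilin and plexin complexes that is known for its part in heart and vessel development (chr5:17574281-17730268, plus strand). It lay at 126, 131 and 149 CPM in the control-labelled and 38.5, 45.0 and 40.7 CPM in the knockout-labelled libraries. These are tight groups well apart, with means of 135 ± 12.4 and 41.4 ± 3.28 CPM (SD, n = 3). The log2 fold change was -1.71 ± 0.17 (SE; edgeR adjusted p = 9.49e-04), a 3.27-fold lower level, and -1.63 on replicates 1 and 2 alone (edgeR adjusted p = 0.0316). It went from 3rd to 9th in the family by RPKM.

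Class 3 semaphorins, the secreted class, had 1 positive and 5 negative log2 fold changes among 6 tested, with Sema3c the one call. Their summed level was 62.6, 51.8 and 58.3 RPKM in the control-labelled and 27.0, 35.7 and 41.9 RPKM in the knockout-labelled libraries. The groups of sums did not overlap, and Sema3c and Sema3f made up most of the level. Sema3c itself read 17.6, 18.3 and 20.9 against 5.39, 6.30 and 5.71 RPKM, and without it the sums overlapped. Sema3f, a repellent ligand of neuropilin complexes, had the highest mean RPKM of this class and family over both groups. Its values were 169, 131 and 144 against 71.6, 109 and 151 CPM, which overlapped (log2 fold change -0.42; edgeR adjusted p = 0.381). Sema3d lay lower in every knockout-labelled library, at 32.1 to 46.4 CPM against 51.6 to 64.4 CPM, and was not called (edgeR adjusted p = 0.182). Sema3a, the classic axon-repelling semaphorin, and Sema3e, a ligand of plexin D1, stood at 46.9 and 17.3 CPM in control-labelled library 1 and at no more than 25.9 and 9.03 CPM in the other 5.

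Among the membrane-bound classes, Sema4g had the largest fold of the uncalled members that reached 5 CPM. It measured 18.6, 8.87 and 6.53 CPM against 27.0, 23.9 and 33.4 CPM, with no overlap (log2 fold change 1.31; edgeR adjusted p = 0.0693; 0.0115 without control-labelled library 1). Sema4g was called higher in 5 of the 17 alternatives. Sema4b and Sema5a lay on the other side, also without overlap. Sema4b was at 202, 139 and 161 against 111, 96.0 and 119 CPM (edgeR adjusted p = 0.0808), and Sema5a was at 461, 219 and 245 against 148, 148 and 174 CPM (edgeR adjusted p = 0.0636). Both were called lower with DESeq2 and with the GC and length offset. Sema5a was also called lower with no filter, on replicates 2 and 3 alone and without control-labelled library 2. Sema5a and Sema5b are the only class 5 members here, and their log2 fold changes were -0.98 and 6.60. The class sum overlapped between groups, at 24.7, 11.8 and 13.2 against 17.9, 14.6 and 15.5 RPKM. Sema6a, a transmembrane ligand of A-type plexins, read 278, 53.1 and 77.0 against 76.1, 58.6 and 76.3 CPM, so that library 1 of the controls alone stood high.

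Plexins, the signalling receptors for semaphorins, had no call among 9 tested by edgeR, 1 gene (Plxnc1) at an unadjusted p under 0.05, 0 calls by limma-voom and 1 by DESeq2. With the GC and length offset, Plxnb1 and Plxnb2 were called lower. Their summed level was 150, 115 and 117 against 140, 123 and 132 RPKM. The groups overlapped, and for 6 of the 9 the 95% interval of the fold lay within 2-fold either way. Plxna1, which pairs with neuropilins, was the plexin with the highest RPKM. It read 372, 321 and 283 against 395, 325 and 377 CPM (log2 fold change 0.17; edgeR adjusted p = 0.607; -0.38 with the GC and length offset). Plxnc1, the receptor of Sema7a, read 10.9, 7.21 and 17.9 against 31.6, 22.0 and 22.0 CPM, without overlap (log2 fold change 1.07; edgeR adjusted p = 0.0962). Sema7a itself stayed between 0.743 and 1.06 CPM in every library.

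Both neuropilins, the coreceptors for class 3 semaphorins and for vascular endothelial growth factor, lay higher in every knockout-labelled library, and Nrp1 passed the threshold. Nrp1 (chr8:128358604-128503363, plus strand) went from 13.0, 10.4 and 16.9 to 55.5, 33.4 and 28.0 CPM. The lowest knockout-labelled value was above the highest control-labelled one, with means of 13.4 ± 3.29 and 39.0 ± 14.6 CPM (SD, n = 3). The log2 fold change was 1.54 ± 0.32 (SE; edgeR adjusted p = 0.0175), or 2.90-fold, with an edgeR adjusted p of 0.0587 without control-labelled library 1 and 0.0611 without control-labelled library 2. On replicates 1 and 2 alone it was 1.92 (edgeR adjusted p = 0.0474). Nrp2 was the more abundant neuropilin by RPKM and spread more widely, at 56.4, 22.2 and 27.9 against 248, 70.5 and 74.0 CPM. Knockout-labelled library 1 alone held the value of 248 CPM, and the log2 fold change of 1.88 ± 0.54 was not called (edgeR adjusted p = 0.0649). Nrp2 was called higher with no filter, with DESeq2, with replicate number as a block and on replicates 2 and 3 alone. The summed neuropilin level was 2.93 to 6.09 RPKM in the control-labelled and 9.11 to 26.6 RPKM in the knockout-labelled libraries. Endothelial cells, which the EpCAM gate is meant to leave out, also make neuropilins. Their 8 summed markers were 9.62 to 57.2 against 19.1 to 54.2 CPM, with 4 means higher and 4 lower in the knockout-labelled group. The growth factor receptor Flt1 was the one called, higher, and without it the sums were 8.96 to 53.5 against 9.73 to 46.6 CPM. The part of endothelial RNA in the neuropilin values was not tested.

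Of 8 ephrins, the ligands of Eph receptors, Efna3 rose and 7 were not called. Efna3, a membrane-anchored A-type ephrin (chr3:89313899-89322965, minus strand), was at 3.75, 5.03 and 4.10 CPM in the control-labelled and 18.0, 20.3 and 23.8 CPM in the knockout-labelled libraries. The groups were narrow and apart, with means of 4.29 ± 0.658 and 20.7 ± 2.95 CPM (SD, n = 3). Its log2 fold change was 2.27 ± 0.27 (SE; edgeR adjusted p = 0.00189), or 4.82-fold, and 2.12 on replicates 1 and 2 alone, where the edgeR adjusted p was 0.0504. The ephrins next to it on chromosome 3, Efna4 at 10.4 kb and Efna1 at 32.8 kb, were not called. Efna4 read 25.6, 20.0 and 27.1 against 21.9, 35.7 and 36.4 CPM, and Efna1 32.0, 26.3 and 21.9 against 19.1, 27.4 and 25.1 CPM, so both overlapped. Of the exon bases of Efna3, 344 (14.1%) are shared with the opposite-strand gene Gm15998, and the labels do not say whether counting used strand.

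The B-type ephrins, which span the membrane, had log2 fold changes of both signs and no call. Efnb1 lay higher in all 3 knockout-labelled libraries, at 56.8 to 66.3 against 38.0 to 45.4 CPM (log2 fold change 0.62; edgeR adjusted p = 0.0660). Efnb2 lay lower in all 3, at 101 to 118 against 147 to 170 CPM (log2 fold change -0.52; edgeR adjusted p = 0.0766). Efnb3 read 1.16, 1.57 and 3.32 against 8.90, 3.19 and 7.47 CPM, where one knockout-labelled value fell within the control range (edgeR adjusted p = 0.104). Among the A-type ephrins, Efna2 read 3.60, 6.12 and 8.89 against 17.2, 18.1 and 12.2 CPM without overlap (log2 fold change 1.35; edgeR adjusted p = 0.0561; called with no filter, DESeq2 or limma-voom). Efna5 had the highest RPKM of the family and overlapped, at 117, 91.3 and 92.8 against 158, 81.3 and 76.2 CPM (log2 fold change 0.070). Its sign depends on knockout-labelled library 1, since the value was -0.35 without it. The summed ephrin level was 99.6, 92.8 and 91.4 against 117, 106 and 109 RPKM.

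Among Eph receptors, the tyrosine kinases that bind ephrins, Ephb2 and Epha8 rose of 11 tested, and 9 were not called. Ephb2 (chr4:136647539-136835988, minus strand), a receptor of B-type ephrins, went from 15.7, 27.8 and 12.3 to 94.6, 88.2 and 81.4 CPM. The lowest knockout-labelled value lay well above the highest control-labelled one, with means of 18.6 ± 8.13 and 88.1 ± 6.59 CPM (SD, n = 3). The log2 fold change was 2.25 ± 0.31 (SE; edgeR adjusted p = 0.00326), or 4.75-fold, and 2.07 on replicates 1 and 2 alone (edgeR adjusted p = 0.0310). Epha8 (chr4:136929419-136956816, minus strand), a receptor of A-type ephrins known from the brain, lies 93.4 kb from Ephb2 with the 3 complement genes C1qa, C1qb and C1qc between them. Epha8 had no count in any control-labelled library and reached 1.87, 0.978 and 0.520 CPM in the knockout-labelled ones. Set against 3 counts over the control-labelled group, it was at least 29.5-fold higher (edgeR adjusted p = 0.0203). That call was lost on replicates 1 and 2 alone (edgeR adjusted p = 0.0878) and without control-labelled library 3 (0.0620), knockout-labelled library 1 (0.0565) or knockout-labelled library 2 (0.0670).

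The other Eph receptors were not called. Ephb4, a receptor of Efnb2 known from arteries and veins, had the highest RPKM and read 187, 159 and 178 against 283, 166 and 144 CPM, which overlapped (log2 fold change 0.18; edgeR adjusted p = 0.739; -0.29 with the GC and length offset). It was high in knockout-labelled library 1 and -0.17 on the log2 scale without it. Epha1 and Ephb3 had log2 fold changes of -0.072 and 0.032. Ephb6, which lacks kinase activity, lay lower in all 3 knockout-labelled libraries, at 15.6 to 23.1 against 28.8 to 38.4 CPM (edgeR adjusted p = 0.0694). Ephb1 was barely present in the control-labelled libraries, at 0.525, 0.0437 and 0.103 CPM, and read 3.67, 1.65 and 2.08 CPM in the others (edgeR adjusted p = 0.0555). Its log2 fold change was 3.43. Ephb1 was called higher with no filter, DESeq2, limma-voom or the replicate block, on replicates 2 and 3 alone and without control-labelled library 1. Of the receptors not tested, Epha5 had no count in any library, where 3 counts would be 0.0975 to 0.154 CPM. Epha10 read 1.24, 0.219 and 0.479 CPM in the control-labelled group and was at 0 in the other.

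All 3 Slits, secreted ligands of Robo receptors, had positive log2 fold changes, and Slit1 and Slit2 passed the threshold. Slit1 (chr19:41600257-41743665, minus strand) went from 0.300, 0.437 and 0.547 to 3.43, 13.4 and 21.6 CPM. Every knockout-labelled value lay above every control-labelled one, and those 3 differed among themselves by several fold, with means of 0.428 ± 0.124 and 12.8 ± 9.09 CPM (SD, n = 3). The log2 fold change was 4.88 ± 0.72 (SE; edgeR adjusted p = 0.00464), or 29.5-fold, and 4.50 on replicates 1 and 2 alone (edgeR adjusted p = 0.0474). With limma-voom the adjusted p was 0.0796. Slit2 (chr5:47983138-48307733, plus strand) read 1.43, 0.481 and 0.410 against 7.75, 2.93 and 3.48 CPM. Its groups were apart, and its log2 fold change of 2.61 ± 0.69 sat just inside the threshold (edgeR adjusted p = 0.0480). Leaving out any single library other than control-labelled library 1 ended that call, with edgeR adjusted p from 0.0793 to 0.147, and replicates 1 and 2 alone gave 0.221. Slit3 read 8.59, 0.219 and 2.33 against 13.8, 6.13 and 5.75 CPM, and control-labelled library 1 lay above 2 of the knockout-labelled libraries (edgeR adjusted p = 0.488). The summed Slit level was 1.52, 0.129 and 0.492 RPKM in the control-labelled and 3.16, 3.40 and 4.73 RPKM in the knockout-labelled libraries.

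The Robo receptors had no call among 3 tested by edgeR, none at an unadjusted p under 0.05, and 0 by DESeq2 or limma-voom. Robo1, the Robo with the highest RPKM, read 349, 157 and 192 against 208, 228 and 259 CPM. Control-labelled library 1 was the highest of all 6, and the log2 fold change was -0.0059 with all libraries and 0.41 without that one. Robo2 read 21.6, 26.9 and 20.6 against 15.8, 18.9 and 24.7 CPM. Robo4, known from vessel walls, read 1.13, 2.36 and 3.45 against 0.0692, 0 and 3.15 CPM. Like Robo4, 7 of the 8 endothelial markers, all but Flt1, were lower in knockout-labelled libraries 1 and 2 than in library 3; the adhesion molecule Cdh5 read 11.8, 2.49 and 24.2 against 3.46, 0.463 and 15.1 CPM. The part of endothelial RNA in the Robo4 values was not tested, and in bulk libraries fewer cells of a type and less RNA per cell cannot be told apart.

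The netrins, secreted ligands of DCC, neogenin and Unc5 receptors, had no call among 3 tested by edgeR, 1 gene (Ntn4) at an unadjusted p under 0.05, and 0 by DESeq2 or limma-voom. Ntn4, a laminin-like netrin, had the highest RPKM and read 31.7, 11.6 and 15.5 against 4.47, 9.17 and 12.8 CPM. Its groups overlapped, with control-labelled library 1 the highest and knockout-labelled library 1 the lowest (log2 fold change -1.15; edgeR adjusted p = 0.181). Ntn1 read 3.34, 1.49 and 2.33 against 9.93, 2.11 and 2.99 CPM, and knockout-labelled library 1 alone stood out. Ntn3 was at 1.20 to 1.79 against 2.46 to 2.70 CPM, without overlap (edgeR adjusted p = 0.423).

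Among the Unc5 receptors, which mediate repulsion by netrins, Unc5b rose of 3 tested. Unc5b (chr10:60762593-60831581, minus strand) went from 30.6, 43.3 and 32.1 to 143, 124 and 166 CPM. The groups were far apart, with means of 35.4 ± 6.93 and 144 ± 21.0 CPM (SD, n = 3). The log2 fold change was 2.03 ± 0.21 (SE; edgeR adjusted p = 0.00114), or 4.08-fold, and 1.84 on replicates 1 and 2 alone (edgeR adjusted p = 0.0281). Unc5b made up most of the family's summed level, which was 5.20, 7.41 and 5.53 against 24.4, 20.9 and 27.6 RPKM. Unc5a read 0, 0 and 0.753 against 5.75, 3.71 and 3.28 CPM, without overlap, and was not called (edgeR adjusted p = 0.0904), though it was with no filter, DESeq2, limma-voom or replicates 1 and 2 alone, and without control-labelled library 3. Unc5c, at 4.65, 9.31 and 4.07 against 3.15, 2.42 and 5.10 CPM, overlapped and had a log2 fold change of -0.75.

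**Figure D3:**
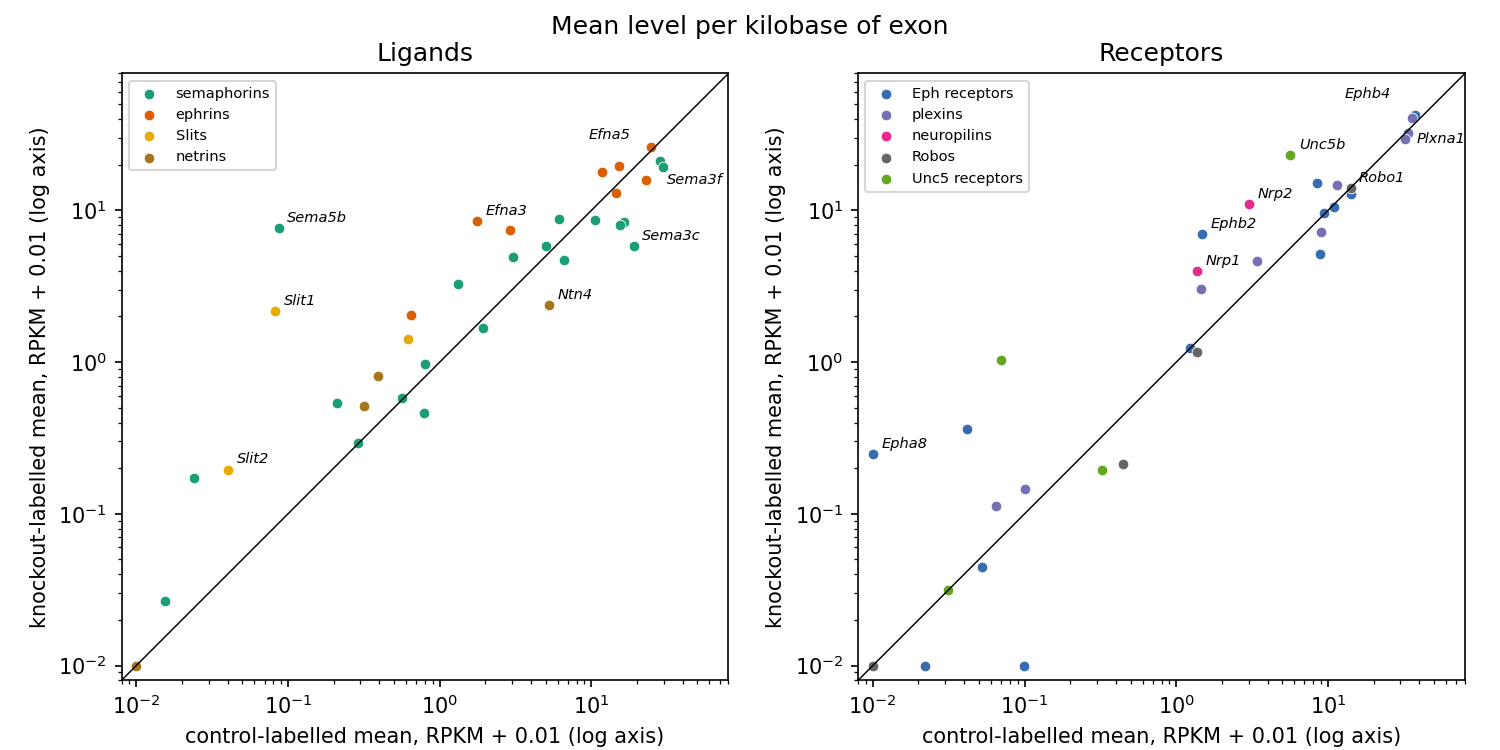
Group mean RPKM plus 0.01 on log axes, control-labelled on the x axis and knockout-labelled on the y axis, for ligands (left) and receptors (right), with the line of equal level and 1 point per gene coloured by family. Sema5b and Slit1 lie farthest above the line among named ligands, Sema3c lies below it, and the abundant plexins lie close to it.

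**Figure D4:**
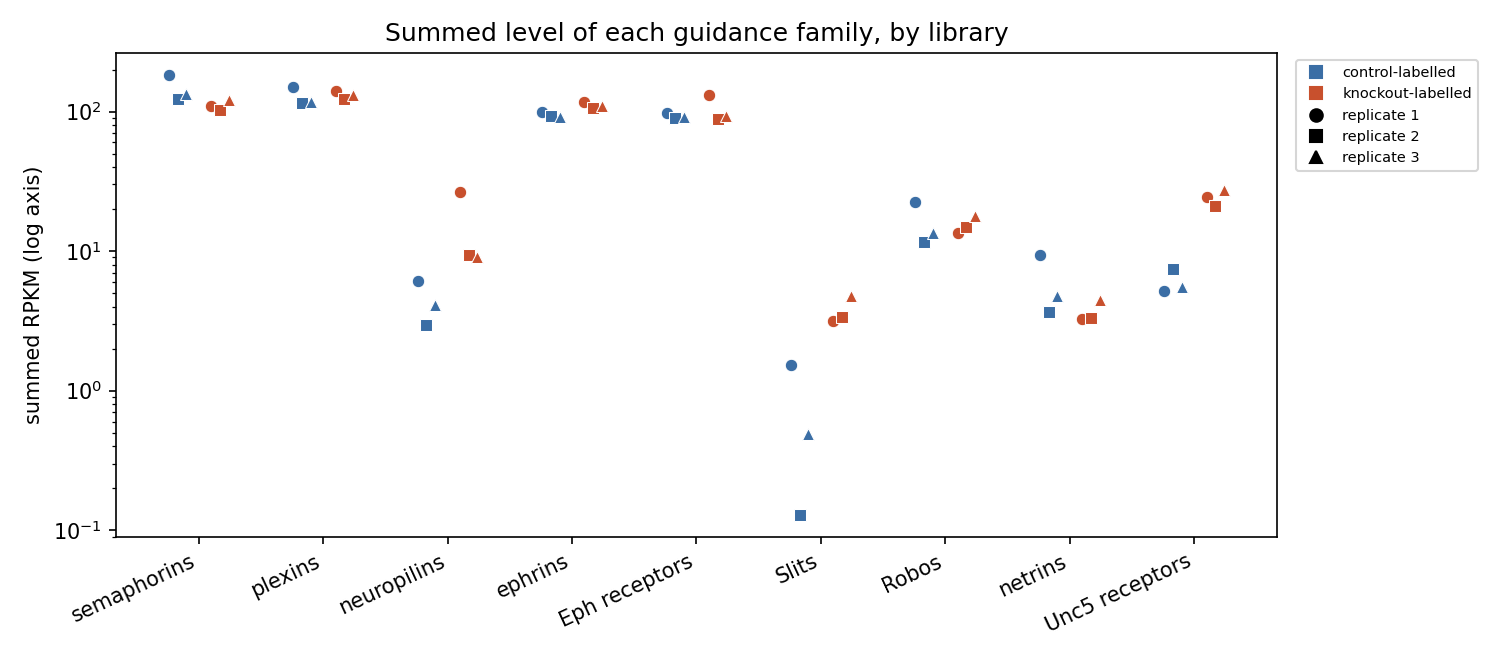
Summed RPKM of each family in each library, with 1 point per library, on a log axis. Slit, Unc5, neuropilin and ephrin sums lie higher in every knockout-labelled library, whereas plexin sums overlap (115 to 150 against 123 to 140 RPKM). Semaphorin sums lie lower (103 to 121 against 123 to 183 RPKM), with nearest values that almost meet, and without Sema3c they overlap. Of the 19 tested semaphorins, 10 had positive and 9 negative log2 fold changes, with a median of 0.020.

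The spread within groups followed library as well as gene. Control-labelled library 1 held the highest control value for 36 of the 61 tested members (59.0%, beside 40.4% of all tested genes). In the other group the highest value was in library 1 for 26 members (42.6%, beside 39.8% of all tested genes), in library 2 for 8 (13.1%, beside 28.3%) and in library 3 for 27 (44.3%, beside 31.9%). Control-labelled library 1, with the high Sema6a, Sema3a, Sema3e, Robo1, Ntn4 and Slit3 values, also held the hair follicle bud gene Shh at 14.5 CPM and the follicle stem cell gene Lgr5 at 17.1 CPM, beside at most 3.29 CPM of either elsewhere. Of the other follicle markers, Sox9 and Lhx2 were also highest in that library among the control-labelled ones. Krt17 was lowest there of all libraries, at 362 CPM, and Krt25, Krt71 and Krt27 were highest in control-labelled library 2. The summed fibroblast markers were also highest in control-labelled library 1, at 799 CPM beside 248 to 731 CPM elsewhere. Over the 8 hair follicle markers the sum was 701 to 793 CPM in the control-labelled and 923 to 1466 CPM in the knockout-labelled libraries. Krt17 and Sox9, neither called, made up most of it, and without them the sums were 24.3 to 95.2 against 65.0 to 67.3 CPM. Krt25, Krt71 and Krt27 were called lower. The part of follicle cells or fibroblasts in the guidance gene values was not tested.

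Some markers of Merkel cells, the touch receptors of the epidermis, were higher in the knockout-labelled libraries. The sum over 8 genes was 16.7 to 74.5 CPM in the control-labelled and 225 to 310 CPM in the knockout-labelled libraries. Of the 5 tested, 4 (Krt18, Isl1, Sox2 and Piezo2) were called higher, beside 7.17% of all tested genes. Isl1 and Sox2 had no count in any control-labelled library and passed the filter on low counts only through the other group. These counts describe the list and test nothing about it. The simple-epithelium keratin Krt7 made up most of the sum, at 7.13, 69.6 and 11.5 against 121, 233 and 255 CPM, and was not called (edgeR adjusted p = 0.0587). Without it the sums were 4.85 to 10.1 against 54.4 to 104 CPM. Atoh1, the defining Merkel cell factor, was at most 0.342 CPM in any library, and Krt20 and Krt8 were at most 2.18 CPM and overlapped. Neuron markers summed to 0.863 to 3.23 against 3.60 to 12.4 CPM. Of these 8 markers only 3 had enough counts to be tested, and of those Tubb3 was called higher. Nefl was at 0 in every library and Prph at 0 in the knockout-labelled ones. Tubb3 read 0.113, 0.131 and 0.171 against 1.42, 8.44 and 6.66 CPM, and the groups overlapped for every other neuron marker. Muscle and pericyte markers summed to 76.5 to 89.0 against 109 to 303 CPM, mostly Cspg4, and melanocyte markers to 13.1 to 16.3 against 16.7 to 27.3 CPM. Of 8 markers in each list, 6 muscle and pericyte and 5 melanocyte markers were tested, and none was called. The part of any of these cells in the guidance gene values was not tested.

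Guidance signals also run through coreceptors, adaptors and cytoplasmic effectors that the symbol rule leaves out. Of 70 such partner genes 63 were tested, 10 rose (15.9%, beside 7.17% of all tested genes) and 2 fell (3.17%, beside 2.98%), and the median log2 fold change was 0.13. The partner list was chosen with earlier results of these data known, so these shares describe the list and test nothing about it. Collapsin response mediators, which carry semaphorin signals to microtubules, included the smallest p: Dpysl5 went from 19.7, 17.4 and 13.3 to 257, 165 and 171 CPM (log2 fold change 3.56 ± 0.26; edgeR adjusted p = 3.56e-04). Dpysl3 went from 4.84, 4.94 and 6.40 to 99.0, 42.5 and 39.2 CPM (log2 fold change 3.48; edgeR adjusted p = 0.00157). Neither pair of groups overlapped, and knockout-labelled library 1 was the highest for both. Nfasc, an adhesion molecule of axons, was at 0 in every control-labelled library and read 8.93, 9.01 and 5.82 CPM in the others, at least 203-fold higher against 3 counts over the group (edgeR adjusted p = 0.00115). Ngef, an exchange factor that acts below EphA receptors, read 1.69, 1.14 and 1.85 against 24.2, 14.7 and 11.6 CPM (log2 fold change 3.43; edgeR adjusted p = 0.00171). The kinase Fyn, which acts below several guidance receptors, and the proteoglycan Sdc3 were also higher, with log2 fold changes of 2.82 and 2.44 (edgeR adjusted p = 0.00447 and 0.00563).

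The partners that fell were Rgmb and Neo1. Rgmb, a membrane ligand of neogenin, read 100, 77.0 and 72.8 against 10.0, 21.7 and 27.6 CPM, with the groups far apart (log2 fold change -2.07 ± 0.36; edgeR adjusted p = 0.00834). Neo1, which encodes neogenin, a receptor of netrins and of Rgmb, read 324, 256 and 293 against 201, 179 and 189 CPM, a small difference with no overlap (log2 fold change -0.62 ± 0.16; edgeR adjusted p = 0.0453). Leaving out any single library other than knockout-labelled library 1 ended the call of Neo1, with edgeR adjusted p from 0.0757 to 0.165, and replicates 1 and 2 alone gave 0.346. The number of lower partners was 1 in each of those cases and 5 without knockout-labelled library 1.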

How the data were processed

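RNA from sorted newborn mouse epidermis was reverse transcribed and amplified from a small input and sequenced as single reads, per the labels' protocols. The deposited values are raw read counts per gene symbol, 1 table per library. The submitters' processing notes name build mm10 and the tools HTSeq 0.6.1, TopHat2 2.0.13, DESeq2 1.6.3 and Cufflinks 2.2.1, with no roles; the annotation and strand setting are not given in the sources used here. Groups came from the genotype labels. Genes were filtered with edgeR's filterByExpr (minimum count 10, minimum total 15) and tested with TMM scaling and the quasi-likelihood F test (edgeR 4.0.16, limma 3.58.1, R 4.3.3; prior count 0.125), adjusted by Benjamini-Hochberg over all genes tested. The biological coefficient of variation was 38.3%. Steps were tested on simulated data. CPM used TMM library sizes, and RPKM divided CPM by GENCODE M21 exon length. A fold against a group at 0 used 3 counts over that group. Intervals cover 95%, and intervals and floors cover only the spread between libraries and counting error. Values in every library were given for called members, for the member with the highest level per length in each family, and for members not called with at least 5 CPM and a 2-fold change; other members named with values were chosen after their values were seen. At most 6 partners were named in each direction, by p. Alternatives were other scaling (DESeq2 1.42.0 size factors, library size), filters, tests, libraries and covariates. The members and lists were chosen with earlier results of these data known.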

Additional observations from a re-analysis of the deposited data

How the results depend on the processing

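The signs and calls of Sema5b, Sema3c, Ephb2 and Unc5b held under all 17 alternatives run, with log2 fold changes of 6.01 to 6.86, -1.77 to -1.63, 1.73 to 2.66 and, for Unc5b, 1.49 or more. Slit1 and Efna3 were called in 16 of 17, Nrp1 in 15 of 17, Epha8 in 10 of 16 and Slit2 in 9 of 17. The number of members called higher, 8, was 13 with no filter, 16 with DESeq2 and 13 on replicates 2 and 3 alone, and 6 to 9 when single libraries were left out. Over all tested genes the share called higher was 7.17% in the main fit. It was 6.06% with no filter, 11.0% with DESeq2, 10.9% on replicates 2 and 3 alone and 4.12% to 6.26% with single libraries left out. The number called lower, 1, was 3 with no filter, 5 with DESeq2, 7 with the GC and length offset and 4 when only replicates 2 and 3 were kept, and 1 to 2 when single libraries were left out. It was 2 without control-labelled library 2 (Sema5a added) and 2 without knockout-labelled library 3 (Robo4 added). Over all tested genes the share called lower was 2.98% in the main fit. That share was 2.68% with no filter, 6.02% with DESeq2, 4.96% with the GC and length offset and 7.10% on replicates 2 and 3 alone. With single libraries left out it was 1.13% to 2.85%. The same share was 0.570% on replicates 1 and 2 alone, 1.17% with the Xist covariate and 2.12% at a 2-fold minimum. The 10 higher partners became 16 on replicates 2 and 3 alone and 7 to 9 with single libraries left out. The 2 lower partners became 5 with DESeq2, 1 on replicates 1 and 2 alone, 6 with the GC and length offset, 1 with Xist as a covariate, 9 on replicates 2 and 3 alone, 1 at a 2-fold minimum and 1 to 5 with single libraries left out. Over all genes, calls numbered 1512, beside 2535 with DESeq2, 810 with the Xist covariate, 439 on replicates 1 and 2 alone and 2694 on replicates 2 and 3 alone, and 811 to 1393 with single libraries left out. The causes of these shifts were not tested.

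Same-numbered libraries of the groups deviated together with correlations of 0.175, 0.228 and 0.0773, and every library correlated best with its own number, but the labels do not say what a number stands for. With the replicate block, 9 members were higher and 1 lower, and 11 partners were higher and 4 lower. Ephb1 and Nrp2 were added and Epha8 was lost (edgeR adjusted p = 0.0578). Over all tested genes the block gave 6.82% higher and 2.92% lower.

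Some log2 fold changes near 0 changed sign. Efna5 was -0.0048 with the replicate block, -0.23 on replicates 2 and 3 alone, -0.091 with the Xist covariate and -0.35 without knockout-labelled library 1, and 0.26 at the other end, without knockout-labelled library 3. Ephb4 was -0.12, -0.0054 and -0.17 on replicates 2 and 3, with the Xist covariate and without knockout-labelled library 1, -0.29 with the GC and length offset, and up to 0.36 without knockout-labelled library 3. Plxna1 was -0.38 with that offset. Robo1 was 0.080 with the replicate block, 0.073 with limma-voom, 0.48 on replicates 2 and 3 alone (edgeR adjusted p = 0.0416), 0.11 with the Xist covariate, and 0.41, 0.068 and 0.010 without control-labelled library 1, knockout-labelled library 1 and knockout-labelled library 2, and -0.22 without control-labelled library 2. Low counts kept 7 of 68 members from being tested. The 95% interval lay within 2-fold either way for 20 of 61, and wide ones occurred in abundant members too, such as -2.17 to 0.27 for Sema6a.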
